A study of Homo sapiens with 6 samples.

Results

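CD38 and 9 further genes of NAD metabolism were followed in wild-type and UBE2S-knockout Huh7 cells, 10 of the 20289 genes in the deposited count table. The members were BST1, NAMPT, NAPRT, NMNAT1, NMNAT3, NADSYN1, NNMT, NADK and SIRT1 beside CD38, and each was found once by its symbol. They were picked by role with their wild-type and knockout values already known, so their differences are given as a description and carry no test. Huh7 is a human hepatocellular carcinoma line. The series asked which genes act downstream of UBE2S, a ubiquitin-conjugating enzyme that extends ubiquitin chains for the anaphase-promoting complex, and held 3 wild-type (WT) and 3 knockout (UBE2S-KO) libraries of poly(A) RNA. The labels name no drug or other treatment for either group. The sources used here do not give how the knockout was made or whether the libraries came from clones, pools or separate cultures, so the spread between libraries may be technical.

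NAD carries electrons in metabolism and is also split as a substrate by several enzyme families, so cells rebuild it all the time. In liver it is made from tryptophan by the kynurenine route, from nicotinic acid by NAPRT and NADSYN1 (the Preiss-Handler route), and from nicotinamide by NAMPT, and the NMNAT enzymes join the mononucleotide to the adenylate in each route. CD38 and its relative BST1 cleave NAD at the cell surface and form ADP-ribose and the calcium messenger cyclic ADP-ribose, sirtuins and PARPs use it inside the cell, NNMT methylates nicotinamide and so withdraws it from salvage, and NADK converts NAD to NADP.

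The sequence before the start of CD38 is shown because this gene was nearly lost in the knockout libraries, and those of NADSYN1 and SIRT1 because one of these genes was lower and the other higher. They are RefSeq sequences of build GRCh38.p14, all on the plus strand, printed up to the RefSeq start or, where it comes earlier, the first base that GENCODE annotates as an exon, with each CG dinucleotide in capitals. CD38 is chr4:15778078-15778274, NADSYN1 is chr11:71452953-71453108 and SIRT1 is chr10:67884406-67884655.
CD38: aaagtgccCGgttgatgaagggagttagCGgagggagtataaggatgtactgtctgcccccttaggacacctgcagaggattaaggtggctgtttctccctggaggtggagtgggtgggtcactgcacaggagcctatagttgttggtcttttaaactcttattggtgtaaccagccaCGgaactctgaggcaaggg
NADSYN1: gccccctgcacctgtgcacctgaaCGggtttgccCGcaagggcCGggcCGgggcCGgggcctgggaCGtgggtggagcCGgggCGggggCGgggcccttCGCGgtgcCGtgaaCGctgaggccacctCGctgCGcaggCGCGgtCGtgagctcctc
SIRT1: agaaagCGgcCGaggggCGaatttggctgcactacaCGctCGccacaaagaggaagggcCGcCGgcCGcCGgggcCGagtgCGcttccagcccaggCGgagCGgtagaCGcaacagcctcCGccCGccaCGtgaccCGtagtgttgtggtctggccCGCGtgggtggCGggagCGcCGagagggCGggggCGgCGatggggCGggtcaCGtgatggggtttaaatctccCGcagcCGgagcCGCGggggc
The stretch of CD38 holds 3 CG dinucleotides in 197 bases, against 18 in 156 for NADSYN1 and 32 in 250 for SIRT1.

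In windows of 300 bases around the RefSeq start, from 250 before it to 50 after it, CD38 had 4 CG dinucleotides, the fewest of 10 windows that 7 of the genes had. Among all 35116 such RefSeq windows, 29.6% had 4 or fewer, and the median was 14. NAMPT had 38, NADSYN1 34, SIRT1 39 and NMNAT1 27, while the 3 windows of NADK had 36, 6 and 5 and the pair for NMNAT3 had 18 and 12. BST1, NAPRT and NNMT were not among the entries. On either strand the CD38 window held CCAAT, as 34.6% of all windows did, and held neither TATAAA (11.5% of all), GGGCGG (45.0%) nor CACGTG (7.26%). GGGCGG was in the windows of NAMPT, NADSYN1, SIRT1, NMNAT1 and NMNAT3 and in 2 of the 3 of NADK, and CACGTG, the core of the E-box that clock factors bind, was in those of SIRT1 and in 1 of NADK. The motifs were searched as written and are a description of these windows, not of factor binding.

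The libraries held 21840499 to 27910396 estimated counts. UBE2S, the target of the knockout, was at a log2 fold change of -2.29 (SE 0.04, with an edgeR adjusted p of 1.6e-12) and was lower in each knockout library than in any wild-type library. The UBE2S-KO libraries still held 1046, 1062 and 1147 counts of UBE2S, and the count table holds no protein values. All 10 hepatocyte markers examined were detected, AFP and ALB at means of 12606 and 6475 CPM in WT and 11518 and 5891 CPM in UBE2S-KO (counts scaled to a common library total after TMM normalization). Of the 10, 7 fell and 2 rose by edgeR's adjusted p below 0.05, from -0.57 for TTR to 0.67 for FGB on the log2 scale. By the same threshold 30.7% of all 13265 tested genes fell and 29.4% rose. The part of the hepatocyte markers in the differences below was not tested. Of the wild-type libraries, replicate 1 differed most from its group: its chi-square over genes, divided by the degrees of freedom, was 8.11 and 10.4 when set against replicates 2 and 3, and 1.79 for the latter pair.

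All 10 genes passed the filter on low counts, CD38 through its wild-type libraries alone, so that it could pass only by being lower in the knockout. CD38, NAMPT, NAPRT, NMNAT1, NADSYN1, NNMT and NADK were lower in every knockout library than in any wild-type library (33.5% of 13265 tested genes were lower in this way), and SIRT1 was higher in all (32.3%). BST1 and NMNAT3 overlapped between the groups. By edgeR's adjusted p below 0.05, 7 were lower (30.7% of tested genes) and 2 higher (29.4%), so 9 of 10 were called where 60.1% of all tested genes were. The choice of the genes used this contrast, and nothing is read from these counts. The median log2 fold change of the 10 genes, knockout minus wild type, was -0.39, against -0.00057 over all tested genes. The choice bears on this median too, and nothing is read from it.

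**Figure D1:**
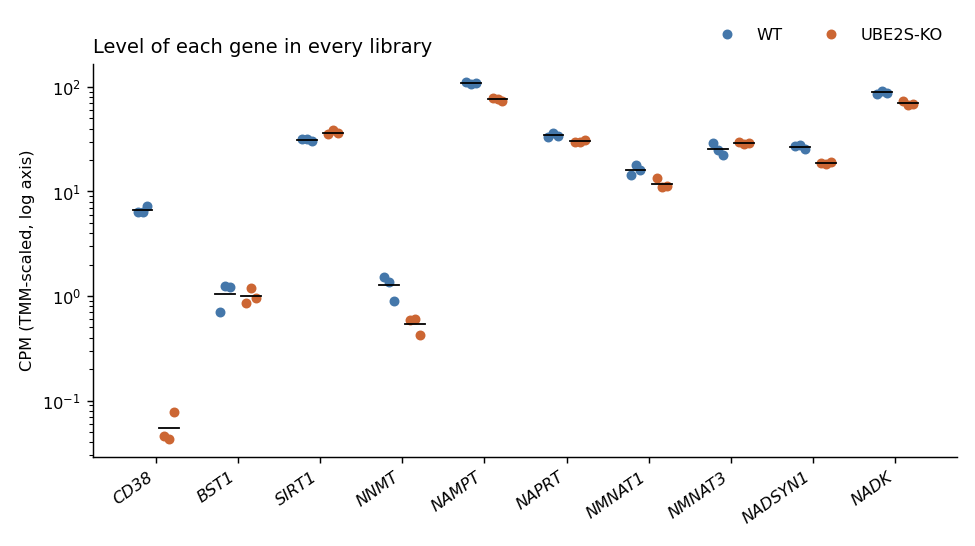
Level of the 10 genes in each of 6 libraries, in CPM on a log axis, with wild type in blue, UBE2S knockout in orange and a black line at each group mean. CD38 falls from between 6.36 and 7.28 CPM to at most 0.0771 CPM, while BST1 and NMNAT3 overlap between the groups.

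CD38 was expressed at a low level in wild type and was almost absent from the knockout libraries. The wild-type libraries held 172, 149 and 204 counts of CD38 (6.36, 6.39 and 7.28 CPM), and the knockout libraries 1, 1 and 2 counts (0.0455, 0.0428 and 0.0771 CPM). The means were 6.68 ± 0.520 and 0.0551 ± 0.0191 CPM (SD, n = 3 each). The groups were far apart and all wild-type libraries lay close together. The summed counts were 525 and 4, a ratio of wild type to knockout of 119 after scaling (95% exact binomial interval 46.4 to 440, counting error only). The fitted log2 fold change, which depends on the few knockout counts, was -6.78 (SE 0.26), the 16th lowest among the tested genes. With each library left out in turn it was -7.09 to -6.63, the lowest value without UBE2S-KO replicate 3. The SE, taken from the F statistic, is too small for 4 knockout counts, and the wider interval above is the better guide. In bulk RNA, fewer cells with CD38 mRNA and less CD38 mRNA per cell cannot be told apart.

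CD38 is best known from lymphocytes and plasma cells, so markers of leukocytes were examined beside it. Of 9 markers, CD3E, MS4A1 and NKG7 had 0 counts in all 6 libraries. PTPRC, the common leukocyte antigen, had 11 counts in WT and 2 in UBE2S-KO, CD79A had 4 and 5, and JCHAIN had 2 and 2. The remaining 3 passed the filter and all fell: CD68 (-1.004, SE 0.08), LYZ (-0.74, SE 0.03) and CD14 (-0.48, SE 0.12). The summed level of the 9 was 290 to 313 CPM in wild-type and 179 to 182 CPM in knockout libraries, most of it from LYZ at 280 and 168 CPM. The lymphocyte markers named here were thus at or near 0 in both groups, and the part of CD68, LYZ and CD14 in the difference of CD38 was not tested. Of 10 stromal and endothelial markers 4 were tested, with COL1A1 and PDGFRB higher and LUM and PECAM1 lower. The others had few or no counts in all 6 libraries together: KDR and CLEC4M 0, THY1 5, DCN 6, VWF 15 and CDH5 30. The summed level of the 10 was 14.9 to 15.96 CPM in WT and 18.6 to 20.3 CPM in UBE2S-KO.

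BST1, the closest relative of CD38 and its neighbour on the short arm of chromosome 4, did not share its loss. The WT libraries held 19, 29 and 34 counts of BST1 (0.703, 1.24 and 1.21 CPM) and the UBE2S-KO libraries 19, 28 and 25 (0.864, 1.20 and 0.964 CPM). The groups overlapped, and the lowest value was that of wild-type replicate 1. The ratio of wild type to knockout was 1.04 (95% exact binomial interval 0.746 to 1.44), and the log2 fold change was -0.05 (SE 0.27). It turned positive without WT replicate 2 (0.07), WT replicate 3 (0.07) or UBE2S-KO replicate 1 (0.04), and was -0.28 without WT replicate 1 and -0.19 without UBE2S-KO replicate 2. A difference of BST1 was not detectable at this depth. BST1 overlaps FAM200B on the same strand in the annotation, and reads in the shared stretch could go to either gene.

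In GENCODE release 29 (GRCh38), BST1 spans 15702950 to 15738313 and CD38 spans 15778275 to 15853230 of chromosome 4, both on the plus strand. The tested gene before BST1 is FAM200B, at 38.0 ± 3.90 CPM in WT and 31.2 ± 1.22 CPM in UBE2S-KO, which fell by 0.29 (SE 0.07, edgeR adjusted p = 0.0031). The tested gene after CD38 is PROM1, which encodes the membrane glycoprotein prominin and is a marker of progenitor cells in liver. PROM1 rose from 147 ± 3.10 to 200 ± 2.77 CPM (0.44, SE 0.03, edgeR adjusted p = 8.2e-08). FGFBP1 and FGFBP2, which lie between CD38 and PROM1, had 2 and 1 counts in all libraries together. The median log2 fold change of 50 tested neighbours of CD38, 25 on each side, was 0.01. Of these neighbours 16 rose and 17 fell by edgeR's adjusted p below 0.05, where 29.4% of all tested genes rose and 30.7% fell. The lowest, named here after its values were seen, was SORCS2, which encodes a sortilin-related receptor and had 387, 309 and 391 counts in WT and 8, 8 and 10 in UBE2S-KO (-5.23, SE 0.14). As for CD38, this SE is too small for so few knockout counts. PSAPL1 came next (-2.82, SE 0.24), and the highest of the neighbours was at 0.72. Nearer to CD38, CC2D2A fell by 0.72 (SE 0.08). C1QTNF7, before CC2D2A, had 16, 9 and 9 counts in WT and 1, 1 and 0 in UBE2S-KO and was not tested. FBXL5 and TAPT1 were not called. The tested genes next to CD38 thus changed far less than CD38 or not detectably, while the low counts of C1QTNF7 and those of SORCS2 were also nearly gone in the knockout.

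**Figure D2:**
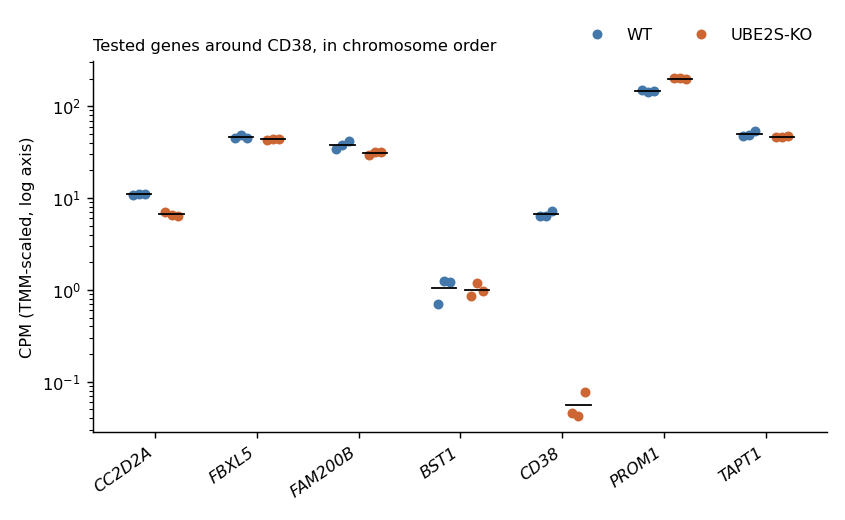
Level of the tested genes around CD38 on chromosome 4, in chromosome order and not to scale, in CPM on a log axis for each of 6 libraries, with wild type in blue, UBE2S knockout in orange and a line at each group mean. CD38 is the gene with a near loss, BST1 beside it overlaps between the groups, and PROM1 is higher in the knockout.

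Genes whose profile over the 6 libraries was most like that of CD38 were sought by the root mean square difference of centred log2(CPM + 1) values, among tested genes that averaged 1 CPM or more. VGLL3, which encodes a cofactor of TEAD transcription factors, was closest (0.0687), with 1006 counts in WT and 66 in UBE2S-KO. IRAK3, an inhibitor of Toll-like receptor signalling, followed (0.0797, 1216 and 91 counts). GABRG1, a subunit of the GABA-A receptor, had a difference of 0.0898 and fell from 553 counts to 1. GATM, the first enzyme of creatine synthesis (0.0906, 5726 and 707 counts), and SFN, which encodes stratifin (0.111, 582 and 7 counts), completed the 5. The added 1 CPM compresses the change of low genes such as CD38, so these genes share a fall of like size on that scale, not the same fold. The likeness is set almost wholly by the difference between the groups, and the 5 genes lie on chromosomes 3, 12, 4, 15 and 1.

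NAMPT, the enzyme that limits nicotinamide salvage, was the most abundant of the 10 in CPM. Its level was 112, 107 and 108 CPM in wild type and 78.6, 77.3 and 72.7 CPM in the knockout. The groups were well separated, with a log2 fold change of -0.52 (SE 0.04), a level 30.3% lower. NAMPT has 3 processed pseudogenes in the annotation that were not in the count table, so reads shared with them make the level less certain.

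NAPRT, which starts the route from nicotinic acid, was lower by less. It stood at 33.1, 36.3 and 34.0 CPM in wild type and at 29.5, 30.0 and 31.1 CPM in the knockout (log2 fold change -0.19, SE 0.05), so the groups were separate but close. NADSYN1, which completes this route by adding the amide group, stood at 27.2, 27.7 and 25.3 CPM in wild type and at 18.7, 18.3 and 19.2 CPM in the knockout. With a log2 fold change of -0.51 (SE 0.06) it was lower by about as much as NAMPT.

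Of the NMNAT genes, whose enzymes carry out the shared coupling step, NMNAT1 was lower in all knockout libraries and NMNAT3 overlapped between the groups. NMNAT1, the nuclear enzyme, stood at 14.3, 18.0 and 15.9 CPM in wild type and at 13.4, 11.1 and 11.3 CPM in the knockout (log2 fold change -0.43, SE 0.10). NMNAT3, reported as the mitochondrial enzyme, stood at 29.1, 24.7 and 22.3 CPM in wild type and at 30.0, 28.7 and 29.2 CPM in the knockout (0.21, SE 0.08). Wild-type replicate 1 lay among the knockout libraries for NMNAT3, and the log2 fold change was 0.32 without it and 0.12 without WT replicate 3. NMNAT3 was not past the threshold with DESeq2 or without any 1 of the other libraries. NMNAT2, the enzyme of neurons, had 2 counts in wild type and 0 in the knockout. Per length of merged exons, NMNAT1 made up 58.0%, 67.2% and 66.6% of the NMNAT mRNA in the WT libraries and 55.7%, 52.2% and 52.1% in those of UBE2S-KO. The shares did not overlap, although wild-type replicate 1 lay close to the knockout. With the longest protein-coding transcripts, the share of NMNAT1 in the sum of NMNAT1 and NMNAT3 was 47.2%, 57.0% and 56.5% in WT and 44.8%, 41.4% and 41.2% in UBE2S-KO. A change of length rescales NMNAT1 against NMNAT3 alike in every library, so the separation of the groups could not change. With this length NMNAT3 stood above NMNAT1 in the knockout, while both overlapped in wild type. NMNAT1 has 5 processed pseudogenes by name that were not in the count table, and NMNAT3 was the only one of the 10 genes with estimated counts that were not whole.

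NADK, the cytosolic NAD kinase, stood at 85.7, 91.9 and 88.4 CPM in wild type and at 72.7, 67.5 and 69.4 CPM in the knockout. All knockout libraries were lower (log2 fold change -0.34, SE 0.04). NNMT was close to the limit of detection, with 41, 32 and 25 counts in wild type (1.52, 1.37 and 0.892 CPM) and 13, 14 and 11 counts in the knockout (0.591, 0.599 and 0.424 CPM). After CD38 it had the largest difference of the 10 (-1.22, SE 0.29), and the ratio of wild type to knockout was 2.35 (95% exact binomial interval 1.60 to 3.51). SIRT1, the nuclear NAD-dependent deacetylase, was higher in the knockout, at 35.3, 38.4 and 35.9 CPM against 31.6, 31.8 and 30.3 CPM (0.23, SE 0.05).

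Levels can be compared between genes only per length. Per kilobase of merged exons in wild type, NADK was highest (15.9 ± 0.558 CPM per kb), followed by NAMPT (12.1 ± 0.241), NAPRT (11.2 ± 0.534), SIRT1 (6.86 ± 0.179), NMNAT1 (3.48 ± 0.402), NMNAT3 (1.95 ± 0.267), NADSYN1 (1.64 ± 0.0809), CD38 (0.974 ± 0.0759), NNMT (0.432 ± 0.112) and BST1 (0.353 ± 0.102). Of the neighbours in this order only NNMT and BST1 overlapped. In the knockout CD38 was last (0.00804 ± 0.00279), and NAPRT (9.80 ± 0.274) stood above NAMPT (8.42 ± 0.343), which overlapped SIRT1 (8.02 ± 0.363). The order depends on the length used. With the longest protein-coding transcript in place of merged exons, a choice made after seeing the data, NADSYN1 reached 9.64 CPM per kb in wild type and ranked the fourth, NADK overlapped NAMPT, and NAMPT stayed above NAPRT in the knockout.

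The ratio of NAMPT to NAPRT within a library does not depend on library scaling. Per length of merged exons it was 1.15, 1.01 and 1.09 in the WT libraries and 0.907, 0.878 and 0.795 in those of UBE2S-KO, so that all knockout libraries were lower. With the longest protein-coding transcripts it was 1.27 to 1.45 in WT and 1.00 to 1.14 in UBE2S-KO. In wild type the ratio was above 1 with both lengths, and in the knockout its side of 1 depended on the length. A change of length multiplies the ratio of every library by the same factor, so it could not alter the separation of the groups.

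Several of the moderate differences lay in stretches of chromosome where the median of the other genes was shifted the same way. Log2 fold changes of single neighbours ran from -2.89 to 0.96 around NADK, -1.54 to 1.62 around NMNAT1 and -0.52 to 1.59 around SIRT1. The spread of such medians over the genome was not examined. NADK and NMNAT1 both lie on chromosome 1, and the median log2 fold changes of the 50 neighbours were -0.30 and -0.29, against -0.34 and -0.43 for the genes. Around SIRT1 on chromosome 10 the neighbours had a median of 0.41, above the 0.23 of SIRT1 itself. NAPRT on chromosome 8 was lower (-0.19) among neighbours with a median of 0.19. The medians around NADSYN1 (0.03) and NNMT (-0.04), both on chromosome 11, and around NMNAT3 (0.05) on chromosome 3 were near 0. NAMPT on chromosome 7 had a neighbour median of -0.12, and of -0.24 with 10 in place of 25 on each side. The part of such regional shifts in the differences of NADK, NMNAT1, SIRT1, NAPRT and NAMPT was not tested.

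The tested genes nearest to NNMT were ZBTB16, a zinc finger transcription factor, which fell from 12.1 ± 0.684 to 4.95 ± 0.239 CPM (-1.28, SE 0.09, edgeR adjusted p = 7.4e-08), and C11orf71 (-0.35, SE 0.13). C11orf71 had an edgeR adjusted p of 0.029 and was not called with DESeq2 (adjusted p = 0.098). It was not called either without WT replicate 3 (0.13), UBE2S-KO replicate 1 (0.11) or UBE2S-KO replicate 3 (0.11).

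**Figure D3:**
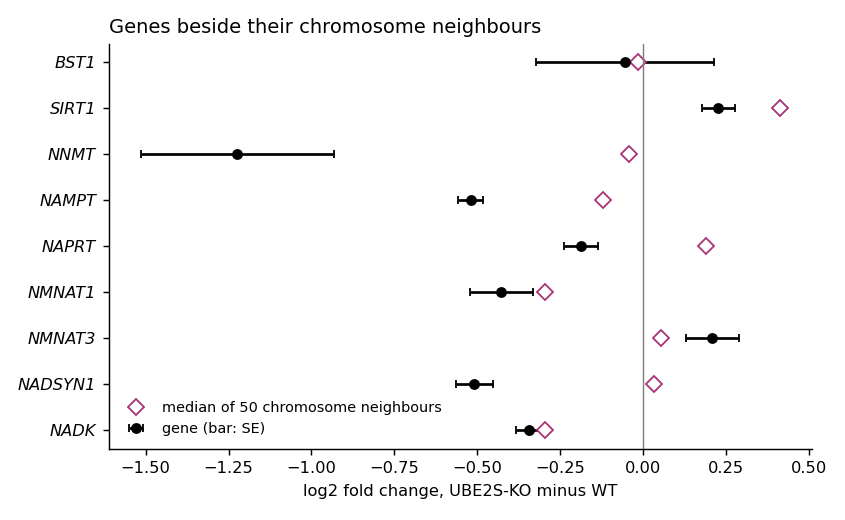
Log2 fold change, knockout minus wild type, of 9 genes (black points, bars are standard errors), beside the median of 50 tested neighbours on the chromosome (open diamonds). CD38, at -6.78 with neighbours at 0.01, lies off the axis and is left out; NADK and NMNAT1 lie near their neighbours, and NADSYN1 and NNMT do not.

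The remaining genes of NAD metabolism were taken from 10 lists written by role, with 105 genes, of which 94 were tested. By edgeR's adjusted p below 0.05, 29 rose and 32 fell, 64.9% of those tested where 60.1% of all tested genes were called. Their median log2 fold change was -0.03. The share is near the background and is no result about these genes as a group. For each list below, the shares to set beside its counts are 29.4% higher and 30.7% lower over all tested genes. Nothing is read from the counts of single lists.

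In the kynurenine route, 2 of 9 tested genes rose and 3 fell (median -0.22). TDO2, which opens the route from tryptophan in liver, fell from 2.88 ± 0.295 to 1.47 ± 0.479 CPM (-0.96, SE 0.21), and AFMID, the formamidase of the next step, fell by 0.37 (SE 0.05). QPRT, which turns quinolinic acid into the mononucleotide and was far the most abundant gene of the list, rose from 197 ± 2.48 to 242 ± 2.12 CPM (0.30, SE 0.03, edgeR adjusted p = 1.5e-06). AADAT, an aminotransferase that draws kynurenine to kynurenic acid, rose too (0.51, SE 0.08). ACMSD, which diverts an intermediate away from NAD, fell by 0.50 (SE 0.20, edgeR adjusted p = 0.042), but it lost its call with DESeq2 (adjusted p = 0.22). The call was also lost without the filter on low counts (0.054), with a replicate block (0.061), and without WT replicate 1 (0.084), WT replicate 3 (0.11), UBE2S-KO replicate 2 (0.086) or UBE2S-KO replicate 3 (0.15). IDO1 and IDO2, which can replace TDO2 outside liver, had 8 and 1 counts in all libraries and were not tested.

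Among salvage, nucleotide handling and uptake genes, 4 of 10 tested genes rose and 4 fell (median -0.08). NT5E, the surface ectonucleotidase that dephosphorylates mononucleotides, fell from 71.1 ± 4.10 to 33.2 ± 1.26 CPM (-1.10, SE 0.05, edgeR adjusted p = 2.7e-09), and ENPP3, a pyrophosphatase that can cleave NAD outside the cell, fell by 1.52 (SE 0.33). ENPP3 had 45, 38 and 40 counts in WT and 5, 11 and 23 in UBE2S-KO, and its log2 fold change was -2.14 without UBE2S-KO replicate 3 and -1.19 without UBE2S-KO replicate 1. The related surface gene ENPP1 rose from 152 ± 2.52 to 176 ± 4.03 CPM (0.21, SE 0.03, edgeR adjusted p = 6.9e-05). PNP, which releases nicotinamide from its riboside, fell from 69.8 ± 4.01 to 45.2 ± 1.15 CPM (-0.62, SE 0.05). The cytosolic nucleotidase genes NT5C2 (from 159 ± 3.70 to 264 ± 2.56 CPM, 0.73, SE 0.03) and NT5C3A (0.37, SE 0.06) rose, as did the nucleoside transporter gene SLC29A1 (0.22, SE 0.05). NMRK1, the riboside kinase, gave -0.19 (SE 0.13) and was not called.

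In the list of NADP, mitochondrial NAD and repair genes, 3 of 7 tested genes rose and 1 fell (median 0.11). NADK2, the mitochondrial NAD kinase, stood at 162 ± 10.5 and 160 ± 3.09 CPM and was not called, whereas its cytosolic counterpart NADK was lower in all knockout libraries. NNT, the transhydrogenase of the inner mitochondrial membrane, rose from 48.6 ± 0.682 to 69.4 ± 1.74 CPM (0.51, SE 0.04, edgeR adjusted p = 1.6e-07). SLC25A51, the carrier that brings NAD into mitochondria, fell from 6.78 ± 0.554 to 4.24 ± 0.351 CPM (-0.67, SE 0.11). NUDT13 (1.04, SE 0.24) and NAXD, a repair enzyme for hydrated NADH (0.20, SE 0.06), rose. NUDT13 was low, with 18, 26 and 33 counts in WT and 51, 51 and 42 in UBE2S-KO. Without WT replicate 1 the number that fell was 2, since NADK2 then passed the threshold (adjusted p = 0.014).

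Of the 6 other sirtuins, SIRT3 rose and SIRT2, SIRT6 and SIRT7 fell (median -0.10), while SIRT1 was higher. SIRT6, a chromatin deacetylase, fell from 19.5 ± 1.14 to 11.0 ± 0.901 CPM (-0.82, SE 0.07, edgeR adjusted p = 1.1e-06), and SIRT2, which acts mainly in the cytosol, fell from 18.1 ± 0.512 to 11.0 ± 1.45 CPM (-0.71, SE 0.08). SIRT3, the main mitochondrial deacetylase, rose by 0.26 (SE 0.07, edgeR adjusted p = 0.008), but was not called with DESeq2 (adjusted p = 0.057). SIRT7 (-0.15, SE 0.05) had an edgeR adjusted p of 0.023 and was not called with DESeq2 (adjusted p = 0.14). It was not called without WT replicate 2 (0.081) or without UBE2S-KO replicate 1 (0.071), 2 (0.056) or 3 (0.060).

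PARPs use NAD to build ADP-ribose chains or single units on proteins. The list of PARPs and SARM1 went both ways, as 6 of 17 tested genes rose, SARM1 among them, and 7 fell (median -0.04). PARP1, by far the most abundant, fell from 527 ± 3.48 to 462 ± 3.22 CPM (-0.19, SE 0.03, edgeR adjusted p = 3.7e-05). PARP2 (-0.39, SE 0.04) and PARP11 (-0.91, SE 0.17) fell, and PARP6 (0.51, SE 0.05), PARP3 (0.45, SE 0.14) and the NAD hydrolase gene SARM1 (0.40, SE 0.12) rose. PARP3 was not called with DESeq2 (adjusted p = 0.057) or without WT replicate 2 (0.065), UBE2S-KO replicate 2 (0.082) or UBE2S-KO replicate 3 (0.055). The number of the list that fell was 4 with DESeq2, without UBE2S-KO replicate 1 and without UBE2S-KO replicate 3.

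Genes that remove ADP-ribose had 4 of 8 higher and 2 lower, with the highest median of the 10 lists (0.27). PARG, which takes the chains apart, rose from 30.4 ± 2.51 to 43.1 ± 1.74 CPM (0.50, SE 0.06, edgeR adjusted p = 1.1e-05). The macrodomain hydrolase genes MACROD1 (0.77, SE 0.10) and MACROD2 (0.56, SE 0.09) rose too. NUDT5, which hydrolyses free ADP-ribose, fell from 84.9 ± 0.394 to 59.6 ± 2.204 CPM (-0.51, SE 0.04). ADPRS fell by 0.16 (SE 0.05, edgeR adjusted p = 0.014), but not by DESeq2 (adjusted p = 0.12), which left 1 that fell.

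The messengers that CD38 makes act on calcium channels. Of 8 such channels and binding proteins 5 were tested, 2 rose and 0 fell (median 0.10), and with WT replicate 1 left out 1 fell, TRPM2 (adjusted p = 0.014). The ryanodine receptor genes RYR1, RYR2 and RYR3 had 1, 2 and 42 counts in all libraries and were not tested. JPT2, a binding protein of the messenger NAADP, rose from 149 ± 2.51 to 199 ± 1.44 CPM (0.42, SE 0.03, edgeR adjusted p = 9.1e-08). The lysosomal channel gene TPCN2 rose by 0.16 (SE 0.07, edgeR adjusted p = 0.048), with no call by DESeq2 (adjusted p = 0.087), without WT replicate 1 (0.14) or without UBE2S-KO replicate 1 (0.096), 2 (0.068) or 3 (0.17). TRPM2, the channel opened by ADP-ribose, had 81 counts in WT and 42 in UBE2S-KO (-0.80, SE 0.34) and was not called. With total counts in place of TMM 4 of the list rose, and 1 rose with DESeq2 and without any 1 of the UBE2S-KO libraries.

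In the list of nicotinamide oxidation and the methyl donor cycle, which supplies NNMT, 2 of 11 tested genes rose and 6 fell (median -0.17). BHMT, which remethylates homocysteine with betaine, fell from 3.07 ± 0.451 to 1.52 ± 0.117 CPM (-1.002, SE 0.17). MTRR, the reactivating partner of methionine synthase, fell from 52.2 ± 4.99 to 32.1 ± 0.691 CPM (-0.70, SE 0.06, edgeR adjusted p = 9.8e-07), and GAMT, a large user of methyl groups, fell by 0.60 (SE 0.04). AOX1, which oxidises methylated nicotinamide, rose by 0.67 (SE 0.20) but not without UBE2S-KO replicate 1 (adjusted p = 0.068). AHCY, which clears the product of methylation, rose by 0.10 (SE 0.03), but not without UBE2S-KO replicate 3 (adjusted p = 0.071). Without either of these libraries 1 of the list rose.

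Partners and substrates of SIRT1 had 2 of 12 higher and 5 lower (median -0.05). FOXO3 (from 41.6 ± 1.45 to 62.6 ± 1.89 CPM, 0.59, SE 0.04, edgeR adjusted p = 1.5e-07) and FOXO1 (0.29, SE 0.07) rose, and PPARGC1A, a coactivator of mitochondrial genes (-0.64, SE 0.12), the bile acid receptor gene NR1H4 (-0.42, SE 0.04) and PPARA (-0.38, SE 0.07) fell. Clock genes, which drive NAMPT rhythmically in liver, had 3 of 9 higher and 1 lower (median 0.03). NR1D2 (from 32.7 ± 0.535 to 49.1 ± 1.80 CPM, 0.59, SE 0.04), PER1 (0.19, SE 0.05) and CRY1 (0.14, SE 0.04) rose, and PER2 fell by 0.34 (SE 0.05). CLOCK (0.06, SE 0.07) and ARNTL (-0.26, SE 0.14) were not called. PER1 was not called with DESeq2 (adjusted p = 0.075), and without WT replicate 1 the number of clock genes that fell was 2, with CRY2 added (adjusted p = 0.031).

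**Figure D4:**
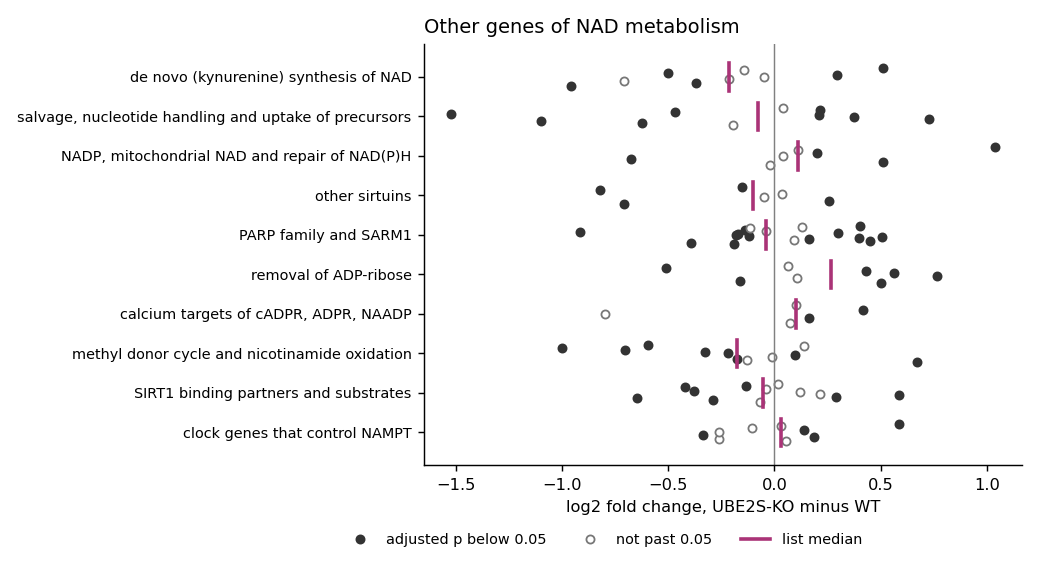
Log2 fold change, knockout minus wild type, of the 94 tested genes of the 10 lists, 1 point a gene, filled where edgeR's adjusted p was below 0.05 and open where it was not, with the median of each list as a vertical bar. Each list but the calcium channels has filled points on both sides of 0, and the list of ADP-ribose removal has the highest median, 0.27.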

How the data were processed

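The data were 1 deposited table of estimated counts, in which the authors gave a value per gene for each of 3 wild-type and 3 UBE2S knockout libraries of Huh7 cells. The tools named, per the submitters' processing notes, were HISAT2, Bowtie2 2.2.8, DESeq2 and StringTie 1.3.1, without their roles. The sources used here do not give the counting program, annotation, build or strand setting, so a gene's reads may include those of an antisense gene. Groups came from the sample titles. The estimated counts were rounded and tested with edgeR 4.0.16 in R 4.3.3 (filterByExpr with a minimum count of 10, TMM, quasi-likelihood F test without covariate, Benjamini-Hochberg adjustment over 13265 genes, threshold 0.05). The code was also run on simulated counts with the same dispersion for every gene and no library unlike its group. That run cannot give the error rate of the test in these libraries. Standard errors came from the fold change and its F statistic, and can be too small for genes that fell to a few counts. Fold changes are log2 values, knockout minus wild type. CPM are on TMM-scaled library sizes, mean ± SD, n = 3. Identifiers of 20171 genes (99.4%) matched GENCODE release 29, which gave positions and exon lengths.

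The genes, lists and tests were chosen with earlier results of these data known. Named in each list were up to 3 called genes per direction with the largest change, with the nearest tested genes of CD38, BST1 and NNMT and the 5 genes most like CD38. Other genes were named after their values were seen. 1 further leukocyte marker is not reported here. Alternatives were other scalings, no filter, DESeq2 1.42.0, a replicate block and each library left out.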

Additional observations from a re-analysis of the deposited data

How the results depend on the processing

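The count of the 10 genes past the threshold was 7 lower under every alternative run, and 2 higher under all but these: DESeq2 gave 1 higher and leaving out single libraries gave 1 to 2, the gene lost each time being NMNAT3. In the main run 30.7% of all tested genes were lower and 29.4% higher. The choice of the 10 genes used this contrast, and nothing is read from their count. Over all genes, 3437 to 4115 were higher and 3675 to 4342 lower without single libraries, and 3259 and 3488 with DESeq2. No paired origin of same-numbered libraries is given. Deviations of such libraries from their group means had correlations of -0.01 to 0.006, and a replicate block in the fit gave 3872 genes higher and 4041 lower. The log2 fold change of UBE2S ranged from -2.32 to -2.26. That of NADK, NAMPT, NAPRT, NADSYN1, NMNAT1, NNMT and SIRT1 kept its sign under all 11 alternatives. The alternative scalings moved the median of all tested genes by 0.0039 and 0.014. With 4 knockout counts of CD38 and 38 of NNMT, depth limits the size of these differences.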
